A study of Xenopus tropicalis with 36 samples.

Results

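Transcript levels of 7 genes of the embryonic kidney were followed in *Xenopus tropicalis* tailbud embryos in which the *Brachyury* paralogs *t* and *t2* had been knocked down (KD) or knocked out (KO). The genes are *pax8*, *pax2*, *lhx1*, *wt1*, *osr1*, *osr2* and *nphs1*. They were taken by symbol from the deposited table of 25774 genes, where each had 1 entry, and all 7 passed the filter on low counts. Poly(A) RNA was sequenced in 36 libraries, made from 5 to 10 pooled sibling embryos each. In the KD experiment, embryos of 3 frogs (D, E and F) were left uninjected or were injected before first cleavage. Injected embryos received 18 ng in total of either a standard control morpholino (cMO) or a mixture of 4 morpholinos against *t* and *t2* (*t*/*t2* MO). A morpholino is an antisense oligomer that blocks translation or splicing of an RNA. In the KO experiment, 3 crosses (1, 2 and 9) between frogs heterozygous for the TALEN-made frameshift alleles te1.2D and t2e3.7D gave wild-type siblings without these alleles, *t*/*t2* het siblings with 1 copy of each and *t*/*t2* KO siblings homozygous for both. All embryos were raised at 25 °C to stages 26 and 34, which gave 3 libraries for each of the 12 groups of condition and stage. The KO experiment thus rests on a single pair of alleles, and the uninjected and wild-type controls belong to different clutches.

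The pronephros is the functional kidney of the tadpole. It forms from intermediate mesoderm beside the anterior somites and consists of a glomus, in which podocytes filter fluid through their slit diaphragms, of a coiled tubule and of a duct. The zinc-finger factors osr1 and osr2 act early in intermediate mesoderm. The paired-box factors pax2 and pax8 and the LIM-homeodomain factor lhx1 specify the pronephric field, wt1 directs podocyte development, and *nphs1* encodes nephrin, an adhesion protein of the slit diaphragm. None of the 6 regulators is restricted to the pronephros: *pax2* and *pax8* are also active at the midbrain-hindbrain boundary, in the otic vesicle and in interneurons, *pax8* in the thyroid, *lhx1* in spinal interneurons, and *wt1* in the proepicardium. RNA came from whole embryos, so fewer cells of a type and less RNA per cell cannot be told apart.

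The genes lie on 6 scaffolds of the deposited annotation of assembly v7.1. *pax8* (Xetro.C00454) was annotated on scaffold 3 from 11836161 to 11859901, *lhx1* (Xetro.B01380) on scaffold 2 from 83633009 to 83644705, and both lie on the minus strand. *wt1* (Xetro.D00382) was on the plus strand of scaffold 4 from 17411216 to 17447091, and *osr2* (Xetro.F00268) on the plus strand of scaffold 6 from 20974834 to 20979275. *pax2* (Xetro.G00810, 42610448 to 42666508) and *nphs1* (Xetro.G02271, 123011912 to 123030039) shared the minus strand of scaffold 7. The model of *osr1* (Xetro.K04283) was the only gene on scaffold 3636, from 801 to 2061 on the plus strand, and held 2 coding exons of 789 bases without untranslated regions. No model overlapped another gene, and counts were of whole gene models, so that exons and introns were not resolved.

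Depth ranged from 30225504 to 52401214 gene fragments per library (median 37215941). Levels are given as normalized counts, which are fragments scaled to a common library size. The targeted transcripts were low where the labels name a KD or KO. *t2* had 4.66 to 59.8 normalized counts in *t*/*t2* MO and 0 to 4.05 in *t*/*t2* KO libraries, against 636 or more in every uninjected and wild-type library. *t* was lower in *t*/*t2* KO than in wild-type siblings in 6 of 6 clutch-by-stage pairs, by a log2 ratio of -3.47 to -2.37, and lower in *t*/*t2* MO than in uninjected siblings in 6 of 6 pairs, by -1.12 to -0.58. It was higher in *t*/*t2* het than in wild-type siblings in 6 of 6 pairs. Of 5 measured genes of paraxial mesoderm, the tissue that depends on Brachyury, 5 were lowered over both stages in *t*/*t2* MO and 5 in *t*/*t2* KO embryos. Of all genes, 15.2% and 3.44% were called in these comparisons. At stage 34 alone, *t*/*t2* KO lowered 4 of the 5 (80%, against 2.98% of all genes). The wild-type library of cross 9 at stage 34 stood high for 3 members, whose values are given with the change between stages. A gene was called where its mean normalized count exceeded 7, its level changed 1.5-fold or more, and its false discovery rate (FDR) did not exceed 10%.

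*nphs1* differed from the regulators in level at stage 26. Per kilobase of the longest transcript model, uninjected embryos at stage 26 held 775 ± 127 normalized counts of *osr2* (SD, n = 3), 538 ± 41.2 of *pax2*, 421 ± 80.7 of *osr1*, 381 ± 65.1 of *lhx1*, 248 ± 20.3 of *pax8*, 135 ± 30.1 of *wt1* and 14.7 ± 10.8 of *nphs1*. The ranges of mean ± SD overlapped for the neighbours *pax2* and *osr1* and for *osr1* and *lhx1*. The order on this scale leans on the models. That of *osr1* lacks untranslated sequence, that of *osr2* lacks the 5′ and that of *nphs1* the 3′ untranslated sequence.

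From stage 26 to stage 34 *pax8*, *pax2* and *osr2* declined while *nphs1* rose. In uninjected embryos, 5 of 7 genes were called, against 31.9% of all genes. *pax8* was at 904, 911 and 1042 normalized counts at stage 26 (frogs D, E and F) and at 331, 297 and 323 at stage 34. It fell by 1.57 ± 0.10 on the log2 scale (SE, FDR 8.94e-10), and the 3 libraries of a stage lay close together. *osr2* fell from 1176, 892 and 898 to 357, 356 and 474 normalized counts, a log2 change of -1.31 ± 0.16 (FDR 1.56e-06). *pax2* (log2 change -1.07 ± 0.13, FDR 2.19e-06) and *osr1* (-0.72 ± 0.19, FDR 0.00387) fell as well. *nphs1* climbed from 82.8, 30.5 and 21.8 to 199, 168 and 193 normalized counts, a log2 change of 2.05 ± 0.35 (FDR 8.56e-05), which was 2.78 without frog D, whose stage 26 library was the highest of its group. *lhx1* (0.07 ± 0.15) and *wt1* (0.04 ± 0.21) gave intervals that included 0.

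Wild-type siblings of the KO experiment gave the same calls except for *osr1*: 4 of 7 genes, against 17.4% of all genes. The log2 changes were -1.10 ± 0.22 for *pax8* (FDR 0.00152), -0.96 ± 0.18 for *osr2* (FDR 0.000756), -0.80 ± 0.17 for *pax2* (FDR 0.00238) and 1.07 ± 0.37 for *nphs1* (FDR 0.0534). *osr1* missed the threshold (log2 change -0.55 ± 0.22, FDR 0.101) and was called without cross 1 (-0.77, FDR 0.0442), whereas *nphs1* missed it without cross 9 (1.03, FDR 0.103). The cross 9 library at stage 34 was the highest of its group for *pax8* (508 against 243 and 283 normalized counts), *pax2* (1073 against 653 and 688) and *osr2* (651 against 476 and 407). Over all 18 pairs of libraries from a clutch and condition, *nphs1* was higher at stage 34 in 18, and *pax8*, *pax2* and *osr2* were lower in 18. *osr1* was lower in 15, and *lhx1* and *wt1* were higher in 12.

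**Figure D1:**
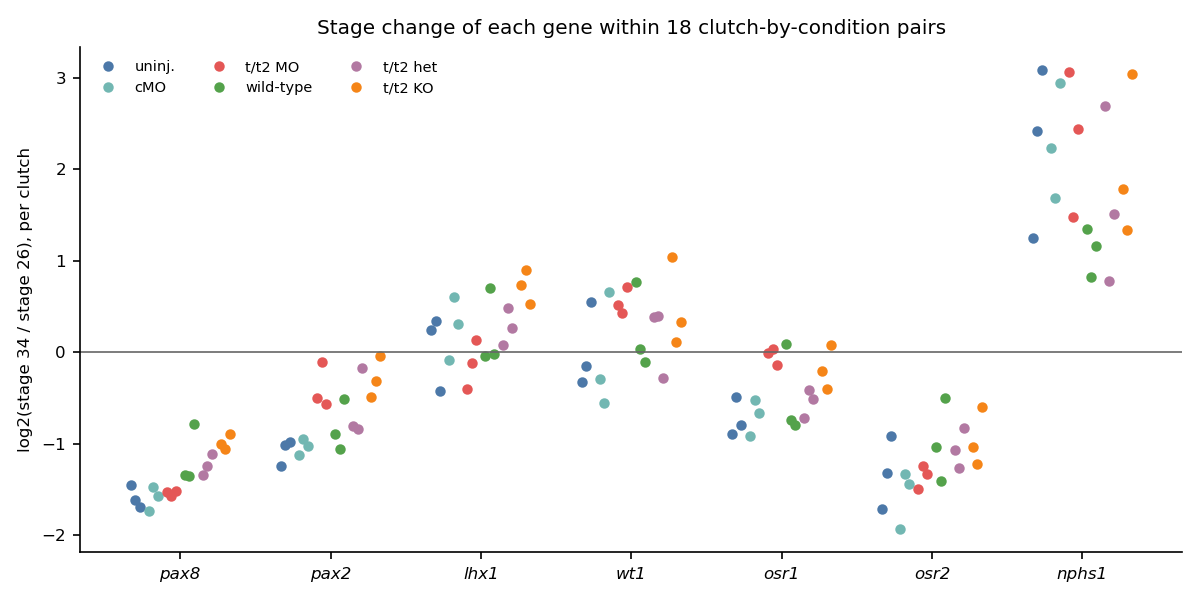
Log2 ratio of the normalized count at stage 34 to that at stage 26 (y axis) for each gene (x axis). Each point is 1 clutch in 1 condition, coloured by condition, and the line at 0 marks no change. All 18 points of *nphs1* lie above 0, and all 18 of *pax8*, *pax2* and *osr2* lie below it.

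cMO injection, which carries any effects of that oligomer's own sequence along with those of injection, left all 7 uncalled by edgeR and by DESeq2, against 1.42% of all genes called by edgeR. At an unadjusted p under 0.05, 1 of the 7 remained, against 3081 of 25209 genes counted. It was *pax8*, which was higher than in uninjected siblings in 6 of 6 pairs by a log2 change of 0.15 ± 0.07 (FDR 0.367). The largest shift among the 7 was that of *nphs1*, -0.35 with a 95% interval from -0.85 to 0.15. *t*/*t2* het embryos, compared with wild-type siblings, had 0 of 7 genes called by either tool, against 0.0222% of all genes by edgeR. At an unadjusted p under 0.05 they had 0 of 7, against 492 of 24952 genes counted. The log2 changes of the 7 ran from -0.12 for *pax8* to 0.16 for *lhx1*.

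*nphs1* was the member that *t*/*t2* MO lowered most. At stage 26, uninjected embryos had 82.8, 30.5 and 21.8 normalized counts (frogs D, E and F) and *t*/*t2* morphants 13, 24.2 and 17.2. At stage 34 the values were 199, 168 and 193 against 116, 69.2 and 98. The groups overlapped at stage 26 and stood apart at stage 34, and *nphs1* was lower in the morphants in 6 of 6 pairs. Over both stages the log2 change was -1.14 ± 0.25 (FDR 0.00154), or 2.21-fold lower, and it was called under all 10 alternative settings (log2 -1.25 to -0.84). It was the only 1 of 7 members called in this comparison, against 15.2% of all genes. Against cMO the change was -0.79 ± 0.25 (FDR 0.0254), again 1 of 7 members against 13.6% of all genes, and it missed the threshold without frog E (-0.76, FDR 0.142).

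Within a stage, the call of *nphs1* was lost without 1 frog, D at stage 26 and E at stage 34. At stage 26 its log2 change of -1.33 ± 0.41 (FDR 0.0343) shrank to -0.35 (FDR 0.697) without frog D, whose uninjected library held 82.8 counts. At stage 34 the change was -1.01 ± 0.33 (FDR 0.0284), and -0.88 without frog E (FDR 0.185). A difference between the stages was not detected (0.31 ± 0.52, FDR 0.87).

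The KO effect on *nphs1* at stage 26 did not pass the threshold. Wild-type siblings had 41.7, 90.7 and 71 normalized counts (crosses 1, 2 and 9) and *t*/*t2* KO embryos 25.3, 50.5 and 22.4, lower in each of the 3 crosses although the ranges overlapped. The log2 change was -1.05 ± 0.40 (unadjusted p = 0.0141, FDR 0.406). With the clutch as a replicate block it was -1.03 and passed the threshold (FDR 0.0585). At stage 34, 108, 161 and 160 normalized counts in wild-type stood against 90, 129 and 192 in *t*/*t2* KO embryos, with a log2 change of -0.08 ± 0.35 (FDR 1). Over both stages it was -0.51 ± 0.27 (FDR 0.466). The *t*/*t2* MO effect minus the *t*/*t2* KO effect on *nphs1* was -0.63, with a 95% interval from -1.43 to 0.17 (FDR 0.382), so a difference between KD and KO was not detected for this gene.

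**Figure D2:**
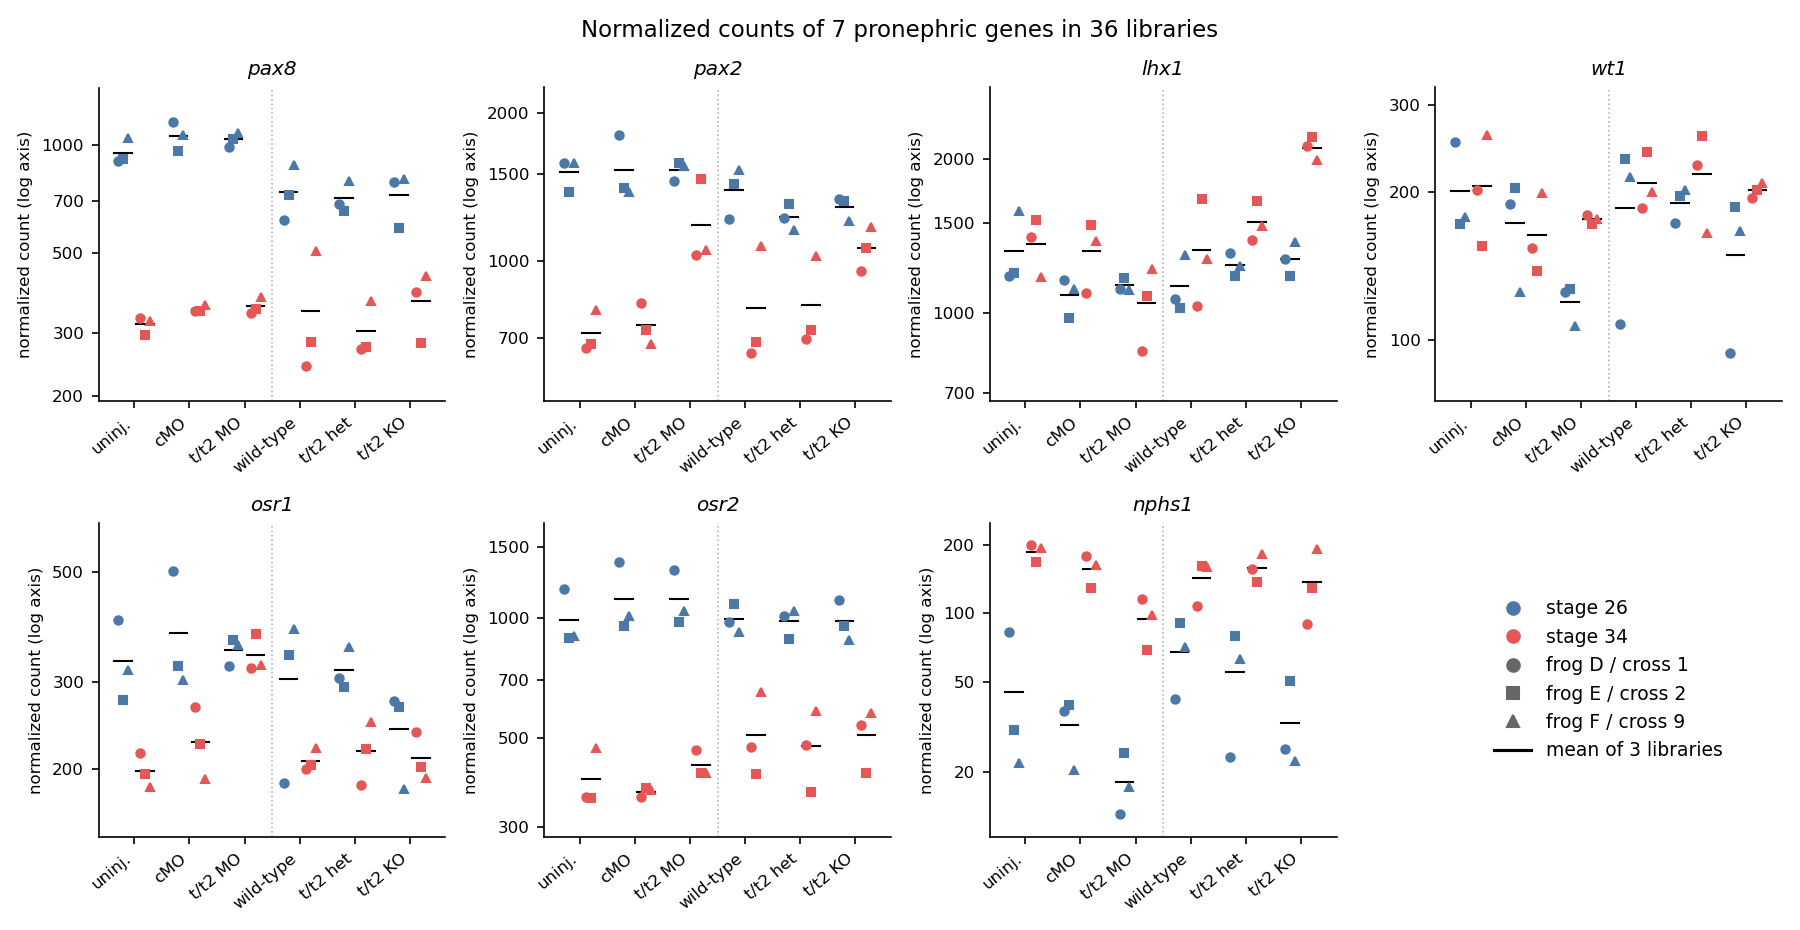
Normalized counts (y axes, log scale) of the 7 genes in all 36 libraries, by condition (x axis), stage (colour) and clutch (marker), with a bar at the mean of each 3 libraries and a dotted line between the KD and the KO experiment. The *t*/*t2* MO libraries of *nphs1* at stage 34 (69.2 to 116) lie below all uninjected ones (168 to 199), and the *t*/*t2* KO libraries of *lhx1* at stage 34 (1987 to 2201) lie above all wild-type ones (1032 to 1672).

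The KO effect and the KD effect on *lhx1* had opposite signs. At stage 34, *t*/*t2* KO embryos had 2118, 2201 and 1987 normalized counts (crosses 1, 2 and 9) and wild-type siblings 1032, 1672 and 1278, so that the groups stood apart. *t*/*t2* het embryos, at 1388, 1654 and 1482, also stayed below every KO library. *lhx1* was raised by 0.64 ± 0.15 on the log2 scale (FDR 0.0205), or 1.56-fold, and was the only 1 of 7 members called at this stage, against 2.98% of all genes. The call was lost without cross 1 (0.49, FDR 0.452) and without cross 9 (0.64, FDR 0.102). At stage 26 the log2 change was 0.17 ± 0.15 (FDR 0.948). Over both stages it was 0.41 ± 0.12 (FDR 0.0447) and higher in 6 of 6 pairs, below the fold threshold. The comparison over both stages thus called 0 of 7 members by either edgeR or DESeq2, against 3.44% of all genes by edgeR. At an unadjusted p under 0.05 was 1 member, *lhx1*, against 3166 of 24952 genes counted. *t*/*t2* KO compared with *t*/*t2* het embryos likewise gave 0 of 7 by either tool, against 2.67% of all genes by edgeR. At an unadjusted p under 0.05 it gave 1 member (*lhx1*, 0.25 ± 0.11, FDR 0.472), against 2304 of 24952 genes counted.

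The effect of *t*/*t2* MO on *lhx1* was below the fold threshold. Uninjected embryos at stage 34 had 1405, 1518 and 1175 normalized counts (frogs D, E and F) and morphants 845, 1083 and 1218, which overlapped. The log2 change of -0.42 ± 0.15 (FDR 0.0453) was below the fold threshold and reached it without frog F (-0.61, FDR 0.00935). Over both stages it was -0.32 ± 0.11 (FDR 0.0416), lower in 5 of 6 pairs. The log2 change of *lhx1* was -0.16 ± 0.11 in cMO versus uninjected embryos (FDR 0.644). Between *t*/*t2* MO and cMO embryos it was also -0.16 ± 0.11 (FDR 0.347). At stage 26 *lhx1* had 1183, 1198 and 1581 normalized counts in uninjected, 1163, 981 and 1113 in cMO and 1115, 1174 and 1111 in *t*/*t2* MO embryos. The *t*/*t2* MO effect minus the *t*/*t2* KO effect on *lhx1* was -0.73 ± 0.16 (FDR 0.0024), called under all 13 alternative settings (-0.80 to -0.63). With *osr1* it was 1 of 2 members called in this contrast, against 8.97% of all genes.

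Interneurons are another domain of *lhx1*, and their markers are given beside it. Of 9 genes of the midbrain-hindbrain boundary and of interneurons, all detected, 0 were called by edgeR or DESeq2 in *t*/*t2* KO embryos at stage 34. This compares with 2.98% of all genes by edgeR. Of the 9, 3 had an unadjusted p under 0.05, against 2440 of 24952 genes counted. The median log2 change of the 9 was 0.31 against 0.0019 for all genes. The summed level of the 9 was 4084 to 5464 normalized counts in wild-type and 5520 to 6819 in *t*/*t2* KO embryos. In the KD experiment it was 4617 to 4854 in uninjected and 3878 to 4712 in morphant embryos at stage 34. The MO effect minus the KO effect was called for 3 of the 9 by edgeR and 2 by DESeq2, against 8.97% of all genes by edgeR. They were *lbx1*, a homeodomain factor of dorsal interneurons (-0.74 ± 0.19, SE), *gad1*, the GABA-synthesizing enzyme (-0.66 ± 0.20), and *slc32a1*, the vesicular inhibitory amino acid transporter (-0.60 ± 0.21). The part of these cells in the *lhx1* result was not tested.

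*pax2* was raised by *t*/*t2* MO at stage 34 alone. Uninjected embryos had 667, 682 and 799 normalized counts and morphants 1029, 1466 and 1054, and the groups stood apart. The log2 change was 0.70 ± 0.13 (FDR 0.000492), or 1.62-fold, and 0.50 without frog E (FDR 0.033), below the fold threshold. At stage 26, where uninjected embryos had 1579, 1381 and 1585 and morphants 1456, 1581 and 1559, it was 0.01 ± 0.13 (FDR 1). The difference between the stages, 0.68 ± 0.18 (FDR 0.0439), was called, as the only 1 of 7 members, against 5.59% of all genes. It was lost without frog E (0.56, FDR 0.305) and without frog F (0.82, FDR 0.132). The *t*/*t2* KO embryos had 955, 1064 and 1173 normalized counts of *pax2* at stage 34 against 653, 688 and 1073 in wild-type siblings, with a log2 change of 0.38 ± 0.17 (FDR 0.438). Over both stages, the *t*/*t2* MO effect minus the *t*/*t2* KO effect on *pax2* was 0.24 and not called (95% interval from -0.14 to 0.62, FDR 0.515). The KD and KO effects at stage 34 alone were not tested against each other. In the morphants at stage 34, 1 of 5 genes of the otic vesicle was raised (20%, against 19.7% of all genes called). The summed level of the 5 was 8663 to 8974 normalized counts in uninjected and 9104 to 10948 in morphant embryos. Of the 9 midbrain-hindbrain and interneuron genes 2 were raised and 1 lowered (33.3%, against 19.7%). The part of either list in the *pax2* result was not tested.

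*osr1* was raised by *t*/*t2* MO at stage 34, where it had 216, 196 and 184 normalized counts in uninjected and 321, 375 and 325 in *t*/*t2* MO embryos, with no overlap. The log2 change was 0.74 ± 0.19 (FDR 0.00497), or 1.68-fold, and remained called without each frog in turn. At stage 26 it was 0.07 ± 0.18 (FDR 0.904). The difference between the stages (0.68 ± 0.26) had an FDR of 0.16, and 0.0616 with the clutch as a replicate block, which raised the members called to 2. The morphants had 323, 365 and 357 normalized counts of *osr1* at stage 26, close to their stage 34 values. The *t*/*t2* KO embryos were at 238, 202 and 192 against 200, 204 and 221 in wild-type at stage 34, with a log2 change of -0.01 ± 0.22. The MO effect minus the KO effect over both stages was 0.59 ± 0.22 (FDR 0.098), and the call was lost without frog E (0.47, FDR 0.377), frog F (0.56, FDR 0.216), cross 2 (0.57, FDR 0.22) or cross 9 (0.35, FDR 0.46). Of 5 genes of the gut and lateral mesoderm, another domain of *osr1*, *t*/*t2* MO lowered 1 at stage 34 (20%, against 19.7% of all genes called). Among the 5, 3 had an unadjusted p under 0.05, against 8752 of 25209 genes counted. The median log2 change of the 5 was -0.39 against -0.04 for all genes. The summed level of the 5 was 3975 to 4244 normalized counts in uninjected and 3893 to 4187 in morphant embryos. Their part in the *osr1* result was not tested.

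*wt1* fell in the morphants at stage 26. It had 252, 172 and 178 normalized counts in uninjected and 125, 127 and 107 in *t*/*t2* MO embryos, and the groups stood apart. Its log2 change was -0.75 ± 0.22 (FDR 0.0243), or 1.68-fold lower, and -0.60 without frog D (FDR 0.195). With *nphs1* it made 2 of 7 members called at stage 26, against 11.2% of all genes. At stage 34 the values were 201, 155 and 260 against 179, 172 and 176, with a log2 change of -0.25 ± 0.21 (FDR 0.457). The difference between the stages was not called (0.50 ± 0.30, FDR 0.422). Over both stages the *t*/*t2* MO change of -0.48 ± 0.16 (FDR 0.029) was below the fold threshold and reached it without frog E (-0.62, FDR 0.0314). It was -0.26 ± 0.16 in cMO versus uninjected (FDR 0.564) and -0.22 ± 0.16 in *t*/*t2* MO versus cMO embryos (FDR 0.365). cMO embryos at stage 26 had 189, 203 and 125 normalized counts, which overlapped the morphants. *t*/*t2* KO embryos gave log2 changes of -0.33 ± 0.26 at stage 26 and -0.07 ± 0.26 at stage 34. Of 6 genes of the proepicardium and heart mesoderm, 1 was raised and 1 lowered by *t*/*t2* MO at stage 26 (33.3%, against 11.2% of all genes). Their median log2 change was 0.21, against -0.03 for all genes. Over both stages *t*/*t2* MO raised 2 and lowered 1 (50%, against 15.2% of all genes), with a median of 0.44 against -0.03. At stage 34 it raised 3 and lowered 0 (50%, against 19.7% of all genes), with a median of 0.48 against -0.04. The gene lowered at stage 26 was *tbx18*, a T-box factor of the proepicardium and a low-count member of this list, named after its values were seen. It was at 38.6 ± 7.69 normalized counts in morphant (SD, n = 3) against 81.9 ± 36.2 in uninjected embryos, with a log2 change of -1.09 ± 0.29 (SE, FDR 0.0135). Over both stages *tbx18* was lowered by *t*/*t2* KO as well (-0.99 ± 0.23, FDR 0.00964). It was the only 1 of the 6 called there (16.7%, against 3.44% of all genes), and the list median was 0.06. *tbx18* thus does not stand for the list, whose medians were above 0 in each of these comparisons. At stage 26 the summed level of the 6 genes was 4915 to 6382 in uninjected and 6425 to 6788 normalized counts in morphant embryos. Their part in the *wt1* result was not tested.

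*pax8* and *osr2* had no called change in any comparison of conditions. In the morphants the log2 change of *pax8* was 0.12 ± 0.10 at stage 26 and 0.14 ± 0.10 at stage 34, and that of *osr2* was 0.17 ± 0.15 and 0.09 ± 0.16. The KO effects lay between -0.04 and 0.07 for both genes at both stages, with 95% intervals that reached from -0.49 to 0.53.

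By stage, *t*/*t2* MO called 2 of 7 members at stage 26 and 3 of 7 at stage 34 (*pax2* and *osr1* raised, *nphs1* lowered), against 11.2% and 19.7% of all genes. The 3 uninjected and the 3 morphant libraries did not overlap for 2 of 7 members at stage 26 and 4 of 7 at stage 34, against 32.6% and 47.1% of all genes. These were *lhx1* and *wt1* at stage 26 and *pax8*, *pax2*, *osr1* and *nphs1* at stage 34. Uninjected and cMO libraries at stage 26 also stood apart for *lhx1*, 1 of 7 members against 14.7% of all genes. Wild-type and *t*/*t2* KO libraries stood apart for 0 of 7 at stage 26 and 1 of 7 at stage 34, against 15.5% and 17% of all genes. The *t*/*t2* KO called 0 of 7 at stage 26 by edgeR and by DESeq2, against 2.51% of all genes by edgeR. At an unadjusted p under 0.05 was 1 member, *nphs1*, against 1662 of 24952 genes counted. With the replicate block 1 of 7 was called at stage 26. A dependence of the KO effect on stage was called for 0 of 7 by either tool, against 0.0278% of all genes by edgeR. At an unadjusted p under 0.05 were 2 members (*pax2* and *lhx1*), against 847 of 24952 genes counted.

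**Figure D3:**
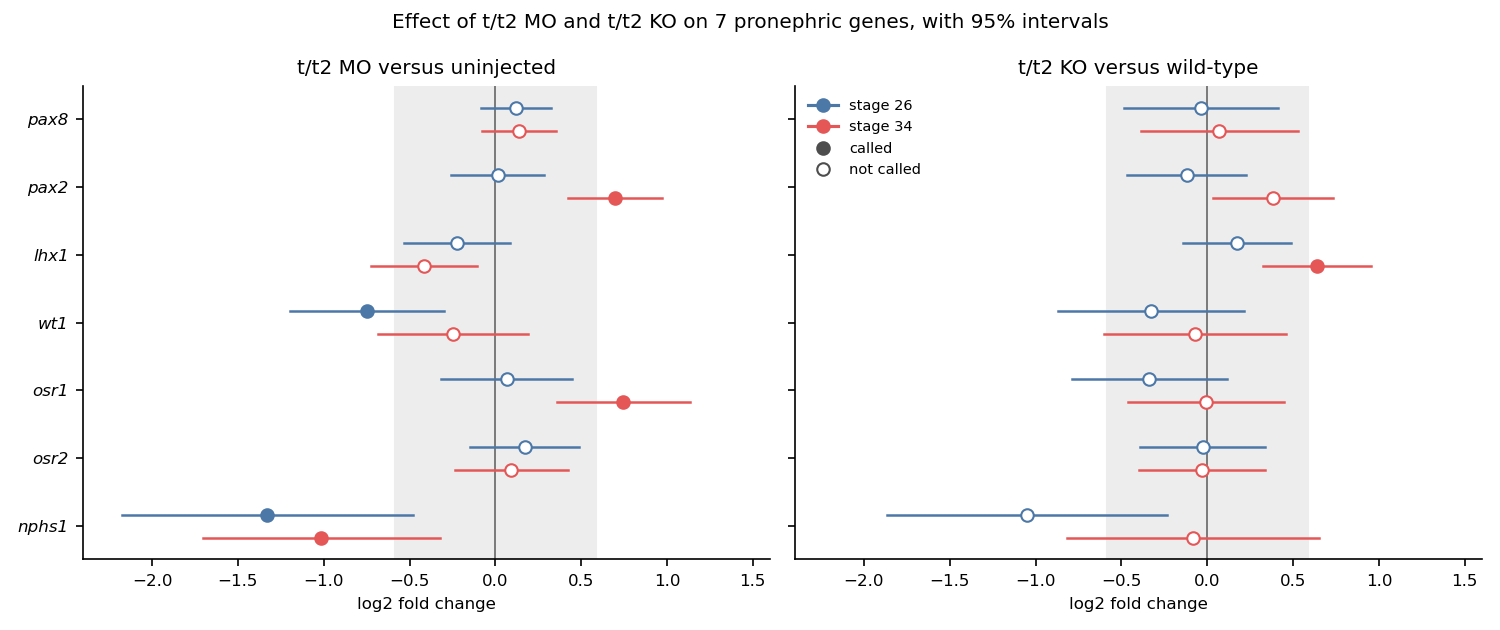
Log2 fold change (x axis) of each gene in *t*/*t2* MO versus uninjected embryos (left) and in *t*/*t2* KO versus wild-type siblings (right), at stages 26 and 34, with 95% intervals of the edgeR fit. Filled points were called, and the grey band marks changes below 1.5-fold. Filled are 5 effects in the morphants and 1 in the KO embryos, *lhx1* at stage 34.

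Genes that change with stage also shifted in the morphants. The 2154 genes called as rising from stage 26 to 34 in wild-type embryos had a median log2 change of -0.26 in *t*/*t2* MO embryos at stage 34, and the 984 falling genes one of 0.17, against -0.04 for all genes. *nphs1* belongs to the former and was lowered, and *pax2*, which belongs to the latter, was raised. *pax8* and *osr2*, which also belong to the latter, changed by 0.14 and 0.09. At stage 34 of the KO experiment the genes that rise and fall in uninjected embryos had median KO effects of 0.06 and -0.06. At stage 26 these medians were -0.10 and 0.10, the other way round. The medians for *t*/*t2* MO at stage 26, over the genes that rise and fall in wild-type embryos, were -0.08 and -0.13. The part of developmental timing in the member results was not tested.

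Other genes of the pronephros were taken from 4 lists of transcription factors, signals, glomus and podocyte genes, and tubule and duct genes, which hold none of the 7. Of 98 list genes past the count filter, *t*/*t2* MO raised 3 and lowered 15 (18.4%, against 15.2% of all genes), and *t*/*t2* KO lowered 1 (1.02%, against 3.44%). cMO and *t*/*t2* het embryos each gave 0 by edgeR and by DESeq2, against 1.42% and 0.0222% of all genes by edgeR. At an unadjusted p under 0.05 they gave 2 and 1, against 3081 of 25209 and 492 of 24952 genes counted. The medians over the 98 genes were -0.04 in *t*/*t2* MO and 0.02 in *t*/*t2* KO embryos, against -0.03 and 0.00 for all genes.

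Of 12 glomus and podocyte genes, *t*/*t2* MO lowered 3 over both stages (25%, against 15.2% of all genes). The list median was -0.08, against -0.03 for all genes. *tcf21*, a podocyte factor counted with the transcription factors below, was raised over both stages. *magi2*, a scaffold protein of the slit diaphragm, was lowered by 0.93 ± 0.13 over both stages (FDR 1.1e-05), and *vegfa*, the endothelial growth factor that podocytes secrete, by 0.63 ± 0.10 (FDR 3.34e-05). *vegfa* fell below the fold threshold without frog F (-0.55). *kirrel2*, a nephrin-related adhesion protein, was raised at stage 34 in morphants (0.60 ± 0.19, FDR 0.0225) and in *t*/*t2* KO embryos (0.66 ± 0.18, FDR 0.0548).

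The tubule and duct list held the largest falls. Of 34 genes, *t*/*t2* MO raised 1 and lowered 9 over both stages (29.4%, against 15.2% of all genes). The list median was -0.11, against -0.03 for all genes. At stage 34, *slc12a1*, the Na-K-Cl cotransporter of the distal tubule, was at 269 ± 17.8 normalized counts in morphant (SD, n = 3) against 1139 ± 206 in uninjected embryos. *slc12a3*, the thiazide-sensitive NaCl cotransporter, was at 107 ± 41.1 against 571 ± 188, and *slc5a2*, a sodium-glucose cotransporter of the proximal tubule, at 41.2 ± 26.7 against 207 ± 53.9. *fxyd2*, a regulator of the sodium pump, was at 281 ± 72.1 against 1286 ± 294. Their log2 changes at stage 34 were -2.12 ± 0.17 for *slc12a1*, -2.44 ± 0.28 for *slc12a3*, -2.35 ± 0.38 for *slc5a2* and -2.23 ± 0.21 for *fxyd2*, all at an FDR of at most 9.67e-05. *cdh16*, a cadherin of renal epithelium (-2.40 ± 0.33), and *slc26a1*, a sulfate transporter (-2.50 ± 0.45), fell with them. *slc26a1* was at 0 in all 3 uninjected libraries at stage 26, so no value over both stages is given for it.

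Several of these genes start late. *slc12a3* rose from 7.4 ± 2.1 to 571 ± 188 normalized counts between the stages in uninjected embryos, and *slc5a2* from 4.54 ± 3.65 to 207 ± 53.9. The MO effect depended on stage for *slc12a3* (-3.86 ± 0.55), *fxyd2* (-1.93 ± 0.31) and *slc12a1* (-1.46 ± 0.24). *slc12a3* was higher in morphants at stage 26 (19.8 ± 4.88 against 7.4 ± 2.1 normalized counts, log2 1.42 ± 0.48) and lower at stage 34. Its change over both stages, -1.35 ± 0.54 (FDR 0.0714), was -0.15 in DESeq2 (FDR 0.939), and it was lost without frog D (FDR 0.139) or frog E (FDR 0.199). *pkd2*, which encodes the channel polycystin-2, was the 1 tubule gene raised over both stages (0.83 ± 0.08, FDR 7.26e-08).

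The only gene of the 4 lists called over both stages in *t*/*t2* KO embryos was *cdh17*, a cadherin of the pronephric duct. It fell by 0.85 ± 0.13 (FDR 5.18e-05), from 602 ± 137 to 336 ± 13.6 normalized counts at stage 34. In morphants *cdh17* was at 534 ± 126 against 584 ± 160, and the MO effect minus the KO effect was 0.85 ± 0.24 (FDR 0.0207), which was lost without frog E (FDR 0.137) or cross 1 (FDR 0.16). *slc5a2* (-2.26 ± 0.52), *slc12a1* (-1.20 ± 0.25) and *cdh16* (-1.58 ± 0.49) were lowered more by *t*/*t2* MO than by *t*/*t2* KO. The call of *cdh16* was lost without frog E (FDR 0.193).

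**Figure D4:**
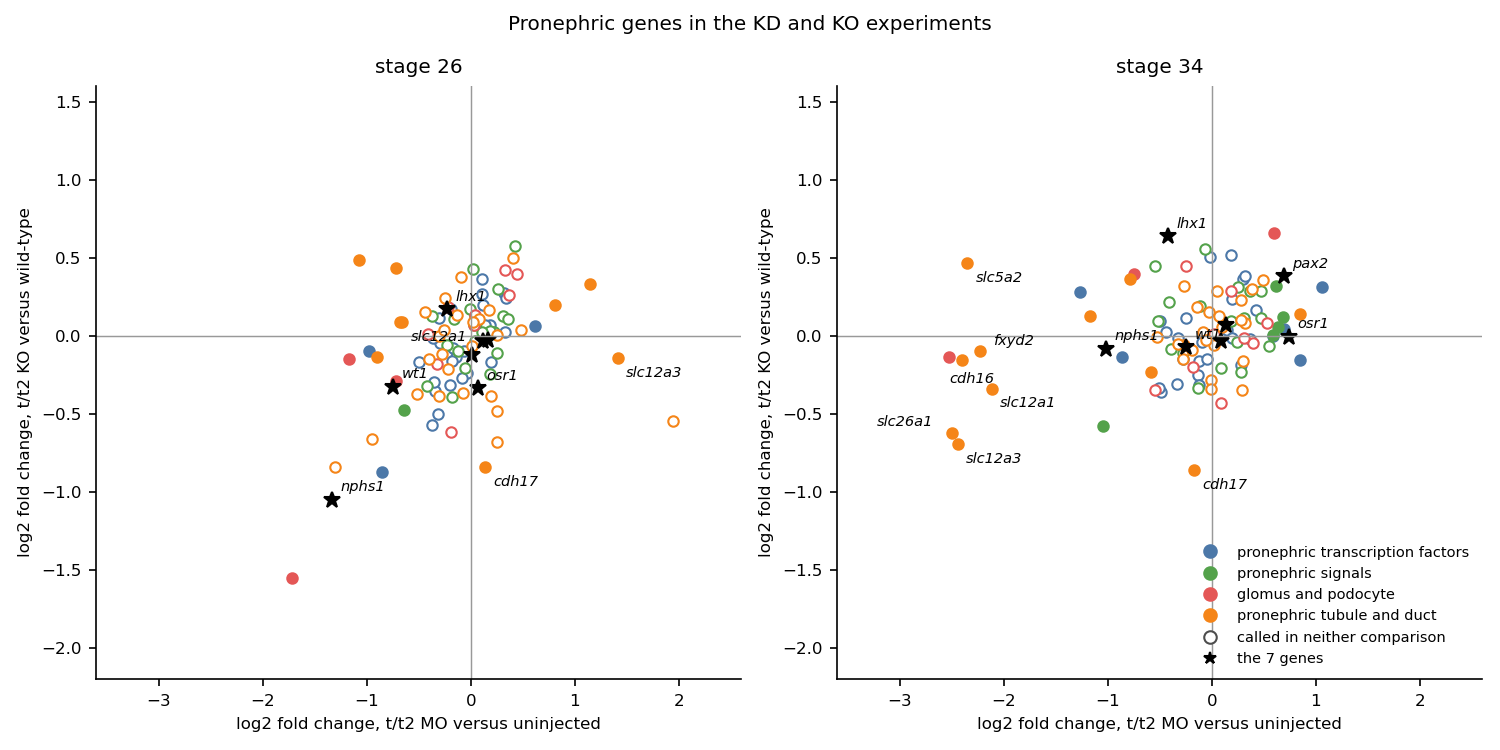
Log2 fold change in *t*/*t2* MO versus uninjected (x axis) and in *t*/*t2* KO versus wild-type embryos (y axis) at stages 26 (left) and 34 (right) for 98 genes of the 4 pronephric lists (coloured by list, filled where called in either comparison at that stage) and for the 7 genes (stars). At stage 34 the tubule genes at the far left have KO effects between -0.69 and 0.47.

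Of 29 transcription factors, *t*/*t2* MO raised 2 and lowered 3 over both stages (17.2%, against 15.2% of all genes). The list median was -0.10, against -0.03 for all genes. *t*/*t2* KO called 0 by edgeR, against 3.44% of all genes, and 1 by DESeq2. Of the 29, 11 had an unadjusted p under 0.05 in *t*/*t2* KO, against 3166 of 24952 genes counted. The raised genes were *tcf21*, a helix-loop-helix factor of podocytes (0.74 ± 0.15, FDR 0.000697), and *sall4*, a zinc-finger factor (0.59 ± 0.13, FDR 0.00145). The lowered genes were *six2*, a homeodomain factor of nephron progenitors in mammals (-1.17 ± 0.20, FDR 0.000139), *esrrg*, an orphan nuclear receptor (-0.69 ± 0.13, FDR 0.000419), and *hoxd8*, a homeobox gene that served the study as a pronephros probe (-0.61 ± 0.15, FDR 0.00344). The calls were lost without frog E for *sall4* (0.53) and *hoxd8* (-0.56) and without frog F for *esrrg* (-0.54), all on the fold threshold. *sall4* was raised at stage 34, from 4354 ± 366 in uninjected to 9274 ± 1101 in morphant embryos, in normalized counts. Of 23 signals, *t*/*t2* MO called 0 over both stages by edgeR and by DESeq2, against 15.2% of all genes by edgeR. Of the signals, 16 had an unadjusted p under 0.05, against 9029 of 25209 genes counted. The list median was 0.18, against -0.03 for all genes. At stage 34 it raised *bmp4* (0.68 ± 0.09), *wnt4* (0.62 ± 0.11), *wnt9b* (0.64 ± 0.22) and *fgf8* (0.59 ± 0.16) and lowered the BMP antagonist *grem1* (-1.05 ± 0.16). These made 21.7% of the signals, against 19.7% of all genes called at stage 34.

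The genes whose profile was most like that of each member were sought over the 36 libraries, after each experiment's mean had been subtracted from the log2 values, among 12009 genes with a symbol and a mean count of at least 50. The points share stages, clutches and libraries, so the coefficients are descriptions. The 3 genes most like *osr2* included *slc10a1* (Pearson's r = 0.97) and *prickle1* (0.96), and *pax8* was most like *pfkp*, *prickle1* and *nt5c1b* (each 0.97). *pax2* was most like *hoxb3*, *hap1* (both 0.95) and *sall4* (0.94), and *nphs1* like *nebl*, *plekhh2* (both 0.94) and the tubule gene *slc5a2* (0.93). *osr1* was most like *ephb3* (0.87), *lhx1* like *barhl2* (0.78) and *wt1* like *pak6* and *fry* (both 0.73). Among the members, *pax8* and *osr2* gave r = 0.96 and *pax8* and *nphs1* -0.83. Once the mean of each group was removed, these were 0.52 and 0.06, while *wt1* and *nphs1* gave 0.58 before and 0.55 after.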

How the data were processed

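Each library came from pooled siblings of 1 clutch. According to the authors' methods, read pairs of 76 bases were aligned with Bowtie2 2.1.0 to gene models, ribosomal and mitochondrial RNA, and pairs aligning uniquely to 1 gene were counted, without use of strand being stated. The deposited raw counts were used as they are. The 3 entries that name no gene (unaligned pairs 27.3% to 34% of all, ribosomal RNA at most 0.462%, mitochondrial RNA at most 0.0582%) were left out. Gene models came from the deposited annotation.

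Counts were TMM-normalized and tested with edgeR 4.0.16 (R 4.3.3), two-sided, by the quasi-likelihood F-test, and p-values were adjusted after Benjamini-Hochberg across every gene counted in the experiment. Models of stage and condition were fitted per experiment, models of group means for single stages and stage dependence, and a joint model of 36 libraries for the MO minus the KO effect. The count filter, passed by 17987 genes, used the mean over the control conditions and the heterozygotes. Intervals are at 95%. The procedure was tested on simulated data. The members and lists were chosen with earlier results of these data known. The text names the 7 members, *t*, *t2*, list genes called in *t*/*t2* MO or KO embryos, and the 3 genes most like each member by Pearson's r, of which those printed are a part. Results of 2 genes that this rule takes are not reported here, and counts over lists include them. The stages were named by number.

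Same-numbered libraries come from the same clutch, so that the numbers pair them. Deviations from the group means correlated with a mean r of 0.305 (KD) and 0.295 (KO) within clutches and -0.152 and -0.147 between clutches. The values between clutches follow from those within clutches, because the deviations in a group cancel out, and add no separate evidence. Alternatives were a replicate block for clutch, DESeq2 1.42.0, an FDR of 1%, RLE size factors, fits to the 2 conditions in question, omission of each clutch, filtering earlier or never, and Spearman's rho. Figures were drawn with matplotlib 3.10.9. No nucleotide or protein sequence was used here.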

Additional observations from a re-analysis of the deposited data

Results flagged for a closer look

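For several genes the effect of *t*/*t2* MO differed between the stages by an interaction test in edgeR, given as the log2 change at stage 34 minus that at stage 26. It was 0.68 for *pax2*, 0.95 for *sall4* and 0.73 for the amino acid transporter *slc7a8*. It was -1.93 for *fxyd2*, -1.46 for *slc12a1*, -3.86 for *slc12a3*, -1.41 for *slc5a11*, a sodium-coupled inositol transporter, -1.04 for *grem1* and -0.91 for *lhx5*, a LIM-homeodomain factor of interneurons. The calls of *grem1*, *slc5a11* and *slc7a8* were lost without frog E (FDR 0.227, 0.298 and 0.23), and those of *slc5a11* and *slc7a8* without frog F (FDR 0.464 and 0.177). Without frog F the value of *slc5a11* was -0.75, and its call was also lost with the compared conditions alone (FDR 0.126). For *lhx5*, omission of a clutch and the replicate block were not run.

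The effects of *t*/*t2* MO and *t*/*t2* KO differed for further genes in the joint model, given as the former minus the latter on the log2 scale. Among the members this was -0.73 for *lhx1* and 0.59 for *osr1*. Among interneuron genes it was -0.66 for *gad1*, -0.74 for *lbx1* and -0.60 for *slc32a1* (FDR 0.0722). For these interneuron genes omission of a clutch and the replicate block were not run, and DESeq2 called 2 genes of their list. Among glomus genes and transcription factors it was -1.06 for *magi2*, -1.30 for *six2* and 0.78 for *tcf21*. Among tubule genes and signals it was -1.58 for *cdh16*, 0.85 for *cdh17*, -1.08 for *fxyd2*, -1.34 for the potassium channel *kcnj10*, 0.66 for *pkd2*, -1.20 for *slc12a1*, -2.26 for *slc5a2* and -0.75 for the GDNF co-receptor *gfra1*. The calls of *tcf21* (FDR 0.109) and *fxyd2* (FDR 0.281) were lost without frog E, and that of *fxyd2* also without frog D, cross 2 or cross 9 (FDR 0.112, 0.119 and 0.122) and in DESeq2 (FDR 0.124).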

How the results depend on the processing

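Among member results with an unadjusted p under 0.05 or a call, 328 of 356 values under alternative settings kept their direction and their side of the threshold, 23 lost the call, 5 gained it and 0 reversed. Of 70 member results with a larger p, 32 changed sign under an alternative, none of them called in either setting. At an FDR of 1%, the members called fell to 0 in *t*/*t2* MO versus cMO (from 1), at stage 26 of *t*/*t2* MO (from 2), at stage 34 of *t*/*t2* KO (from 1) and in the stage dependence of the MO effect (from 1), to 1 in the MO minus KO contrast (from 2), which was also 1 with the compared conditions alone, and, through *nphs1*, to 2 at stage 34 of *t*/*t2* MO (from 3) and to 3 between stages in wild-type embryos (from 4). With the clutch as a replicate block, the members called rose to 1 at stage 26 of *t*/*t2* KO (from 0) and to 2 in the stage dependence of the MO effect (from 1), and no other member call changed. Without each replicate in turn, the members called ranged from 0 to 2 for *t*/*t2* MO at stage 26 (0 without frog D). At stage 34 they ranged from 1 to 4 (1 without frog E, and 4 without frog F, where *lhx1* was added). They ranged from 1 to 2 in *t*/*t2* MO versus uninjected, 0 to 1 in *t*/*t2* MO versus cMO and 0 to 1 at stage 34 of *t*/*t2* KO. In the stage dependence of the MO effect the range was 0 to 1, and in the MO minus KO contrast 1 to 2. Counts over all genes moved by over 1.5 times with the block at stage 34 of *t*/*t2* KO (536 to 884) and in the stage dependence of the MO effect (1006 to 1534), and without frog E or F the latter was 235 or 319. Without cross 1, stage 34 of *t*/*t2* KO gave 337 genes. The few genes called in *t*/*t2* het embryos (4) and in the stage dependence of the KO effect (5) became 10 and 12 in DESeq2, 1 and 1 when filtered before the fit, 8 and 23 with the block, 1 and 1 at an FDR of 1%, and 1 to 2 and 2 to 7 when 1 cross was omitted, and the latter was 3 with the compared conditions alone. At an FDR of 1%, counts over all genes were 132 of 256 for cMO, 1233 of 2007 at stage 26 of *t*/*t2* MO, 335 of 536 at stage 34 of *t*/*t2* KO, 1600 of 3138 between stages in wild-type embryos, 177 of 1006 for the stage dependence and 810 of 1613 for the MO minus KO contrast. By Spearman's rho, 7 of the 21 genes most like the members stayed among the first 3. With 3 clutches, each member call of a condition within a stage was lost without 1 of the frogs or crosses, except that of *osr1* at stage 34 of *t*/*t2* MO. At stage 26, *nphs1* rested on 13 to 90.7 normalized counts per library.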
